A study of Danio rerio with 8 samples.

Results

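The Notch pathway and its Hairy genes were followed by RNA sequencing in zebrafish corneas, control and abraded, and were chosen by symbol: the Notch receptors, the Jagged and Delta ligands, the Fringe and Numb genes, RBPJ, and the her, hey, helt, hes2 and hes6 genes. Such a symbol was carried by 38 of the 32520 identifiers counted. One of these, DLD (ENSDARG00000008785), was set aside, because in the human-style naming of the symbol table DLD stands for the enzyme dihydrolipoamide dehydrogenase and not for the Delta ligand of the same letters. The remaining 37 genes are described here, 33 of them with at least 1 read. A human-style symbol that stands for these genes is carried by 9 further identifiers, namely 2 each for NOTCH1, DLL1 and RBPJ and 1 each for HES1, HES3 and HES4. They are given beside the 37 and counted apart. Which copy is a or b was not resolved, and no sequences or coordinates are given.

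The corneas came from adult zebrafish, wild type on the AB background. Control fish were anesthetized and handled without abrasion, and wounded fish had the central epithelium of both corneas abraded with a burr, all collected 1.5 h later. There were 4 libraries per condition, each from 6 corneas pooled from 3 fish, so that the libraries are the replicates. Libraries with the same number came from the same tank and from fish of 180 days (tank 1), 145 days (tank 2), 148 days (tank 3) and 183 days (tank 4). The submitters set wounded library 1 apart after a principal component analysis, so wounded means wounded libraries 2 to 4 against all 4 controls below, except where all 8 libraries or library 1 are mentioned.

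Notch is a receptor that is cut when a ligand on the neighbouring cell pulls on it, after which its inner part enters the nucleus, joins the DNA-binding protein RBPJ and switches on genes of the Hairy family. The ligands are the Jagged and Delta proteins. Fringe enzymes add sugars to the receptor and change which ligand it answers to, and Numb lowers the amount of receptor at the cell surface. The her, hes and hey genes encode basic helix-loop-helix repressors that hold back differentiation genes, and in stratified epithelia the pathway is known for steering cells of the basal layers toward differentiation.

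The libraries held 39472162 to 44250662 counts. Levels are given as CPM, which are read counts divided by the TMM-adjusted size of their library. Epithelial markers (krt4, krt5, krt91, epcam, cdh1, TP63 and others) were all detected. They summed to 98894 to 103802 CPM in control libraries and to 91676 to 94501 in wounded libraries 2 to 4. Wounded library 1 stood apart with 61424.5. In whole corneas, fewer cells of a type and less RNA per cell cannot be told apart. Lens markers summed to at most 1.38 CPM in any library, whereas retina and glia markers reached 1745 to 3368 CPM in controls and 2503 to 2654 in wounded libraries 2 to 4. Only 5 of the 25 retina and glia identifiers averaged above 10 CPM in controls, and which cells carried their reads was not tested.

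The receptors NOTCH3 and notch2 and the ligands jag2b and jag1b were lower in every wounded library than in every control library, with fitted differences between the groups of 20.6% for notch2 up to 43.3% for jag2b. These were 4 of the 18 genes with enough counts, and none of the 18 separated as higher. Among all tested genes 9.45% separated as lower and 8.16% as higher. None of the 37 genes passed an adjusted p of 0.05 in the edgeR quasi-likelihood test, in which 18 of them had enough counts. Over all genes 1.37% of 18935 passed (0.734% higher and 0.634% lower). An unadjusted p under 0.05 was found for 5 of the 18, and for 18.5% of all genes. When the tank was added as a block, jag2b and NOTCH3 fell, as 2 of 18 genes where 5.22% of all genes passed (2.71% higher and 2.51% lower). In that fit of 7 libraries control library 1 had no wounded partner, so the difference rested on tanks 2 to 4. The same 2 genes fell in DESeq2, out of 13 to which it gave an adjusted p, where 9.29% of all genes passed (4.3% higher and 5% lower). With all 8 libraries 0 of 17 passed in edgeR, with 1.26% of all genes (0.79% higher and 0.468% lower). With all 8 libraries and the block only jag2b fell, with 4.33% of all genes past the test (2.45% higher and 1.88% lower). In edgeR on every gene with a count jag2b fell as 1 of 33 genes, with 1.9% of all genes past the test (1.09% higher and 0.806% lower). Most Hairy genes among the 37 had next to no reads, whereas HES4 and HES1, counted apart, had 16225 and 1990 in all 8 libraries. None of the 37 genes rose in any of these fits.

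**Figure D1:**
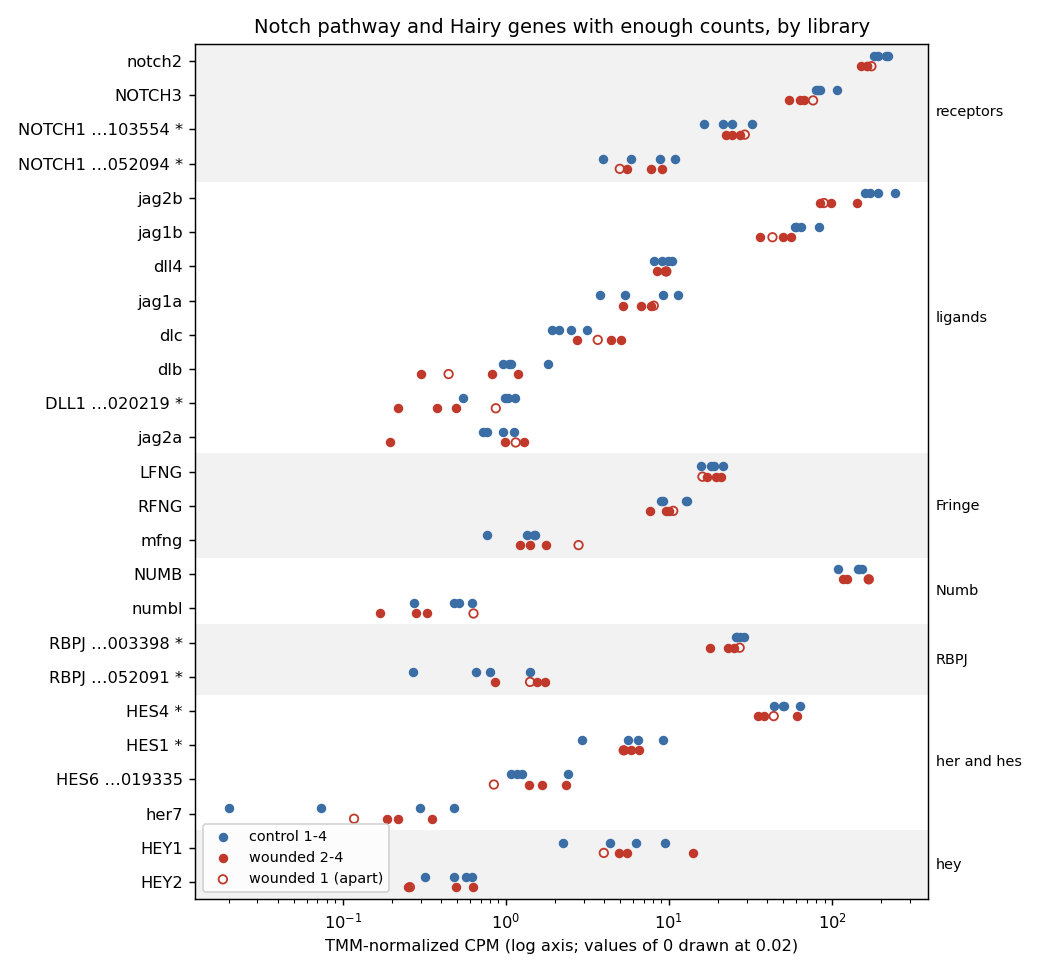
CPM (normalized counts, log axis) in each library for the 25 genes with enough counts to be tested, 18 of the 37 and 7 with a shared human-style symbol (asterisk). Blue points are control libraries 1 to 4, red points wounded libraries 2 to 4 and open circles wounded library 1, and only the last digits of an identifier are shown; the red points of jag2b, jag1b, NOTCH3 and notch2 lie left of all their blue points.

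The ligand gene jag2b (ENSDARG00000021389) encodes a Jagged protein. It was at 159, 172, 192 and 243 CPM in control libraries 1 to 4 and at 99.1, 84.0 and 143 CPM in wounded libraries 2 to 4. The highest wounded library lay below the lowest control library, and wounded library 1, at 89.1 CPM, did too. Control libraries averaged 191 ± 37.1 CPM (SD, n = 4) and wounded ones 109 ± 30.5 (SD, n = 3). Its log2 fold change was -0.82, with a standard error of 0.20 (edgeR adjusted p = 0.0736). With the tank as a block its log2 fold change was -0.92 (edgeR adjusted p = 0.00602). DESeq2 gave an adjusted p of 0.00401. With all 8 libraries the adjusted p was 0.0508 in edgeR and 0.00870 with the block added. Within the tanks, the log2 ratio of wounded to control jag2b was -0.83 in tank 1, -0.80 in tank 2, -1.19 in tank 3 and -0.77 in tank 4. The gene was thus lower in the wounded library of every tank, including the tank whose wounded library was set apart.

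The other Jagged genes differed from jag2b in how clearly the groups separated. The ligand gene jag1b (ENSDARG00000013168) was at 64.4, 60.5, 83.2 and 59.0 CPM in control libraries 1 to 4 and at 49.9, 36.2 and 55.7 CPM in wounded libraries 2 to 4. The groups did not overlap, and wounded library 1 was at 43.1 CPM. The log2 fold change was -0.50 (standard error 0.18), which did not pass in edgeR (adjusted p = 0.176), with the block (adjusted p = 0.163) or in DESeq2 (adjusted p = 0.0857). Between tanks its log2 ratio ranged from -1.20 in tank 3 to -0.08 in tank 4. For jag1a (ENSDARG00000030289) the libraries overlapped, with 3.75 to 11.3 CPM in control and 5.22 to 7.76 CPM in wounded libraries, and the 95% interval of its log2 fold change ran from -0.94 to 0.58. The last Jagged gene, jag2a, was at 0.728 to 1.13 CPM in control and 0.194 to 1.29 CPM in wounded libraries.

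Receptors showed the same split between genes that separated and genes that did not. NOTCH3 (ENSDARG00000052139) was at 84.0, 82.0, 108 and 79.8 CPM in control libraries 1 to 4 and at 54.1, 67.3 and 63.4 CPM in wounded libraries 2 to 4. No wounded library reached the lowest control library, and wounded library 1 at 76.5 CPM was closest to it. The log2 fold change of NOTCH3 was -0.52 (standard error 0.15, edgeR adjusted p = 0.100). It was -0.54 with the tank as a block (edgeR adjusted p = 0.0378), and the adjusted p was 0.0291 in DESeq2. With all 8 libraries its log2 fold change was -0.43 (edgeR adjusted p = 0.171, and 0.0958 with the block), so that its call under the block was lost when wounded library 1 was included.

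The receptor gene notch2 (ENSDARG00000043130) was at 181, 191, 222 and 214 CPM in control libraries 1 to 4 and at 165, 164 and 151 CPM in wounded libraries 2 to 4. Again the groups did not overlap, and wounded library 1 at 174 CPM was also below all controls. The log2 fold change of -0.33 (standard error 0.12) did not pass in edgeR (adjusted p = 0.172), with the block (adjusted p = 0.0760) or in DESeq2 (adjusted p = 0.121). Neither NOTCH1 copy showed such a separation. The copy ENSDARG00000103554 was at 23.7 ± 6.64 CPM in control (SD, n = 4) and 24.7 ± 2.51 in wounded corneas (SD, n = 3), with a 95% interval of the log2 fold change from -0.40 to 0.52. For the copy ENSDARG00000052094 the interval was wider, from -0.70 to 0.73. Both intervals hold the log2 fold change of notch2, and only the wider one holds that of NOTCH3. Whether the receptors differed from each other in their response was not tested.

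**Figure D2:**
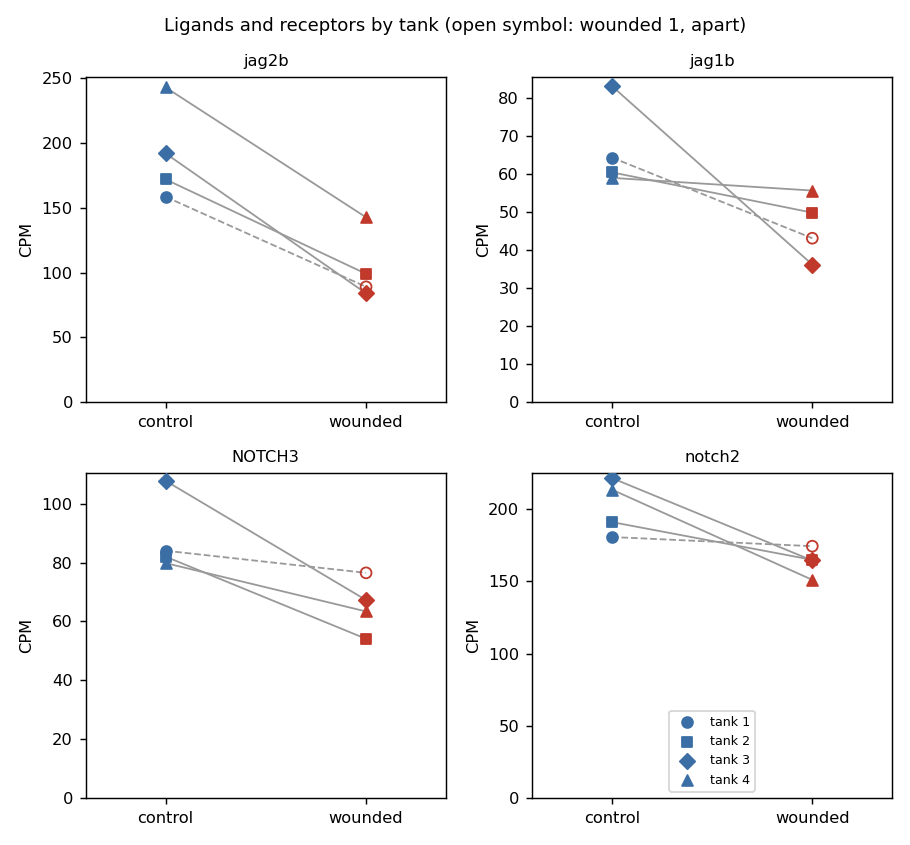
CPM of jag2b, jag1b, NOTCH3 and notch2 in control (blue) and wounded (red) libraries, with a line joining the libraries of each tank; the open symbol and dashed line are wounded library 1. All lines slope down, from -0.05 on the log2 scale for notch2 in tank 1 to -1.20 for jag1b in tank 3.

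Separation of this kind was seen in 4 of the 18 tested genes as lower and in none as higher, whereas over all tested genes 9.45% were lower and 8.16% higher in that sense. With wounded library 1 also below all controls the 4 genes remained the same, and 6.05% of all genes met that rule. The 5 genes with an unadjusted p under 0.05 were dlc, jag1b, jag2b, NOTCH3 and notch2, and 18.5% of all genes had one. The median log2 fold change of the 18 was -0.12, and 12 of them were below 0. Over all tested genes the median was 0.01 and 48.9% were below 0.

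Sums of some marker lists moved between the same groups of libraries. The epithelial markers given above were lower in sum in wounded libraries, without overlap, but by list they were mixed, with 10 of 15 genes below 0, a median log2 fold change of -0.11 and none past the test. One of them, epcam, was above all controls in wounded libraries 2 to 4 (log2 fold change 0.25). Markers of mural cells, in which NOTCH3 is known to act in mammals, were above 0 for 9 of 9 tested genes, with a median of 0.38 and a sum of 1193 to 1555 CPM in control and 1643 to 2122 in wounded libraries. NOTCH3 was lower in the same wounded libraries, and which cells carried its reads was not tested. Markers of vascular endothelium were above 0 for 11 of 14 genes, with a median of 0.30 and sums of 110.0 to 126 against 137 to 163 CPM. Ionocyte and mucous cell markers summed to 345 to 558 CPM in control and 598 to 657 in wounded libraries, also without overlap, with 8 of 11 genes above 0 and a median of 0.40. Keratocyte and stroma markers were above 0 for 9 of 11 genes, with a median of 0.22, and their sums overlapped, at 11810 to 19463 against 12369 to 23621 CPM. No gene of these 5 lists passed in edgeR. With the block 2 mural genes, 1 ionocyte and mucous gene and 1 keratocyte gene rose, where 2.71% of all genes rose. Of the other lists, erythrocyte markers were above 0 for 5 of 5 tested genes, with a median of 0.67. Sums of the erythrocyte, leukocyte, pigment cell, and nerve and Schwann cell lists overlapped between the groups. None of their genes passed in edgeR, and with the block 1 erythrocyte and 1 pigment cell gene rose. The part of these shifts in the values of jag2b, jag1b, NOTCH3 and notch2 was not tested.

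Delta ligands had fewer reads. For dll4 (ENSDARG00000070425), which signals in the tips of growing vessels, the control libraries were at 9.93, 8.10, 10.4 and 9.07 CPM and wounded libraries 2 to 4 at 8.43, 9.43 and 9.47 CPM. All wounded libraries lay inside the control range, and the 95% interval of the log2 fold change ran from -0.40 to 0.32. The gene dlc (ENSDARG00000002336), a Delta ligand of the segmenting embryo and of sensory organs, was at 1.93, 3.14, 2.52 and 2.11 CPM in control and at 2.71, 4.39 and 5.06 CPM in wounded libraries 2 to 4. Its groups overlapped through wounded library 2, which lay below control library 2 of the same tank. The log2 fold change of dlc was 0.74 (standard error 0.28), the only one above 0 among the 8 tested ligands, and did not pass in edgeR (adjusted p = 0.198), with the block (adjusted p = 0.280) or in DESeq2 (adjusted p = 0.130). The gene dlb ranged from 0.303 to 1.83 CPM over wounded libraries 2 to 4 and controls, with overlap. The DLL1 copy ENSDARG00000020219 was at 0.546 to 1.13 CPM in control and 0.218 to 0.492 CPM in wounded libraries 2 to 4, without overlap, but at 0.868 CPM in wounded library 1 (log2 fold change -1.34, with edgeR adjusted p = 0.194). The other DLL1 copy had 19 reads in all 8 libraries.

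**Figure D3:**
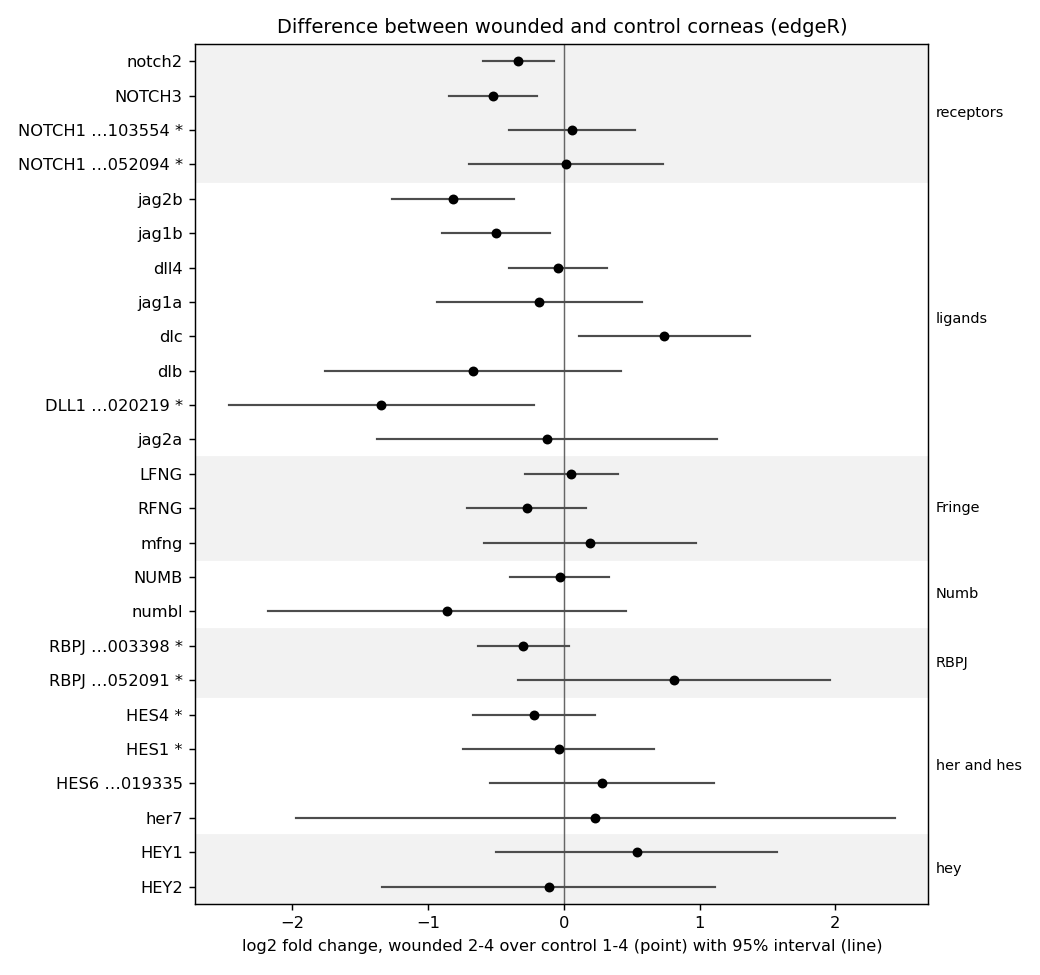
Log2 fold change of wounded libraries 2 to 4 over control libraries 1 to 4 for the 25 tested genes (points), with 95% intervals from the edgeR fit (lines), ordered by role; an asterisk marks a shared human-style symbol. Intervals of notch2, NOTCH3, jag2b, jag1b, dlc and a DLL1 copy leave out 0 before adjustment, and none of the 25 passed after it.

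Genes that tune or carry the signal showed no difference that passed. The Fringe gene LFNG was at 18.5 ± 2.33 CPM in control (SD, n = 4) and 19.2 ± 1.87 in wounded corneas (SD, n = 3), with a 95% interval of the log2 fold change from -0.29 to 0.40. For RFNG the interval ran from -0.71 to 0.17 and for mfng from -0.59 to 0.97. NUMB was at 108 to 152 CPM in control and 116 to 165 CPM in wounded libraries, with an interval from -0.39 to 0.33, whereas numbl stayed under 1 CPM in every library. The DNA-binding partner RBPJ had most of its reads in the copy ENSDARG00000003398, at 25.8, 28.7, 26.2 and 27.2 CPM in control libraries 1 to 4 and at 22.9, 25.2 and 17.8 CPM in wounded libraries 2 to 4. These groups did not overlap, but wounded library 1 at 27.1 CPM lay within the control range, and the log2 fold change of -0.30 did not pass (edgeR adjusted p = 0.325). The copy ENSDARG00000052091 was at 1.41, 0.660, 0.271 and 0.804 CPM in control libraries 1 to 4 and at 1.55, 0.858 and 1.73 CPM in wounded libraries 2 to 4. Its groups overlapped, and its log2 fold change lay on the other side of 0, at 0.81 (edgeR adjusted p = 0.440) and at 1.31 with the block (edgeR adjusted p = 0.110).

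Most Hairy genes among the 37 had next to no reads in the cornea, wounded or not. Of the 19 her and hes genes among the 37, 3 had no read in any library (her1, her4.3 and her5) and only 2 could be tested, her7 and the HES6 copy ENSDARG00000019335. Without that HES6 copy the other 18 genes summed to 224 reads out of 331620439 counts in all 8 libraries, and none of them exceeded 0.482 CPM in any library. A count of 0 allows up to 3 counts, or 0.0683 to 0.0757 CPM depending on the library. A gene without a read in a library may thus still be expressed below that level, and this limit covers counting error only. The 5 her4 copies had 40 reads together and both her15 copies 10. In the RefSeq gene order (assembly GRCz12tu) her12 and the her4 copies follow each other as neighbouring protein-coding genes, as do her2 and the her15 copies, her1 and her7, and her11 and her5. How the counting treated reads shared by gene copies such as those of her4 and her15 was not tested, and the counts of those copies are uncertain. Neighbours in these groups had at most 73 reads each, as did the rest of the 18 genes.

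**Figure D4:**
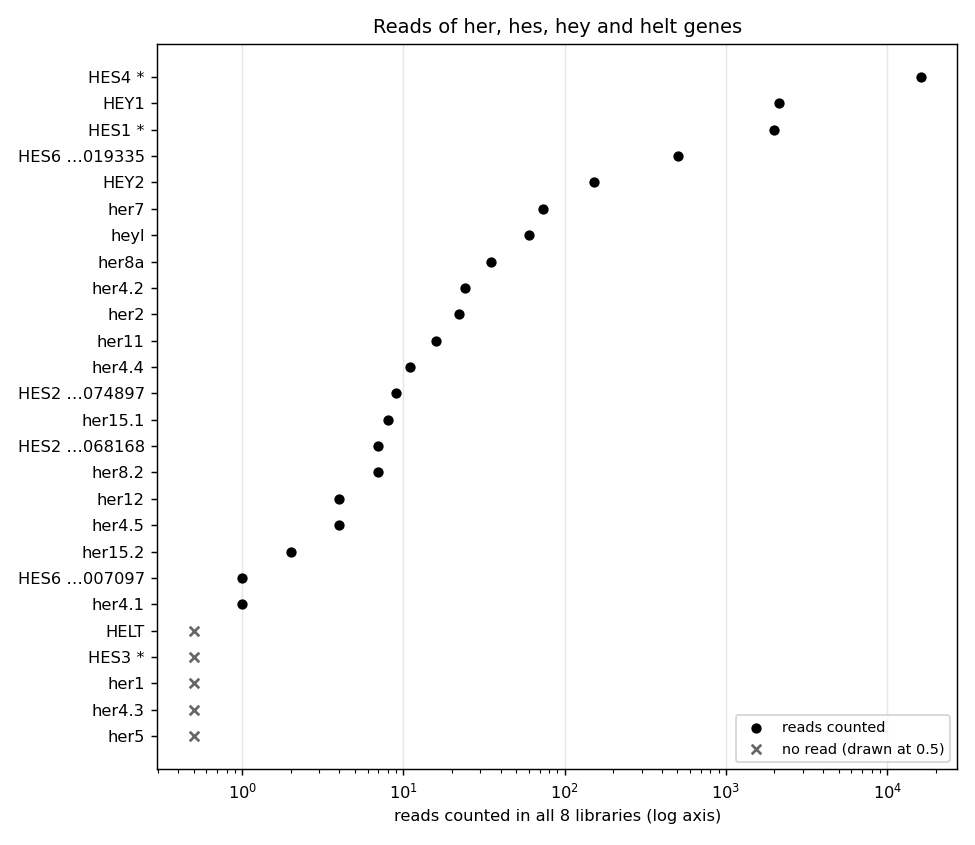
Reads counted in all 8 libraries together (log axis) for each her, hes, hey and helt identifier, the 37 genes and those with a shared human-style symbol (asterisk). Crosses drawn at 0.5 had no read; HES4, HEY1 and HES1 stand at 16225, 2140 and 1990 reads, and most others lie under 100.

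Among the her and hes genes, HES4 and HES1, with 16225 and 1990 reads in all, carry shared symbols. HES4 (ENSDARG00000056438) was at 43.8, 63.4, 50.4 and 50.2 CPM in control libraries 1 to 4 and at 38.4, 35.2 and 60.6 CPM in wounded libraries 2 to 4. Wounded libraries 2 and 3 lay below all controls and wounded library 4 within their range, and the 95% interval of its log2 fold change ran from -0.67 to 0.23. HES1 (ENSDARG00000006514) is a family member whose RNA is known to cycle as it represses itself. HES1 was at 6.06 ± 2.60 CPM in control (SD, n = 4) and 5.91 ± 0.612 in wounded corneas (SD, n = 3). The 95% interval of its log2 fold change ran from -0.74 to 0.67. HES3 had no read. The HES6 copy was at 1.48 ± 0.632 CPM (SD, n = 4) and 1.80 ± 0.494 (SD, n = 3), and the other HES6 copy and both HES2 copies had 1, 7 and 9 reads in all.

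Of the hey genes, which are direct Notch targets in vessels and heart, HEY1 had the most reads. HEY1 (ENSDARG00000070538) was at 2.25, 4.35, 6.31 and 9.51 CPM in control libraries 1 to 4 and at 4.92, 5.52 and 14.0 CPM in wounded libraries 2 to 4. The groups overlapped widely, and the log2 fold change of 0.54 (standard error 0.47) did not pass (edgeR adjusted p = 0.586). It became -0.10 without wounded library 4 and 0.19 with the tank as a block. HEY2 was at 0.319 to 0.617 CPM in control and 0.252 to 0.630 CPM in wounded libraries. The gene heyl had 60 reads and was not tested, and HELT had none.

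HEY1 ranked the tanks alike in both conditions. Ordered by CPM, the tanks stood as 1, 2, 3 and 4 in the control libraries and in the same order in the wounded libraries, with 3.99 CPM in wounded library 1. The NOTCH1 copy ENSDARG00000052094 gave that order too, with 3.95, 5.82, 8.83 and 10.9 CPM in control libraries 1 to 4 and 4.996, 5.50, 7.72 and 9.12 CPM in wounded libraries 1 to 4. Both were chosen after their values were seen. Of the 24 of these genes tested over all 8 libraries, 4 kept the same order of tanks in both conditions (HEY1, numbl, HES1 and that NOTCH1 copy), where 7.72% of all genes did. From tank 1 to tank 4 the fish were 180, 145, 148 and 183 days old, so the order of HEY1 and that NOTCH1 copy was not the order of age. Each tank held fish of a single age, so that a difference between tanks and one between their ages cannot be told apart. In the age test libraries of the same tank were treated as separate replicates. Between fish of 180 and 183 days and those of 145 and 148 days none of the 18 genes passed in edgeR, with 1 at an unadjusted p under 0.05, where 0.238% of all genes passed, 0.127% as higher and 0.111% as lower in the older fish (smallest adjusted p of the 25 genes 0.449).

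**Figure D5:**
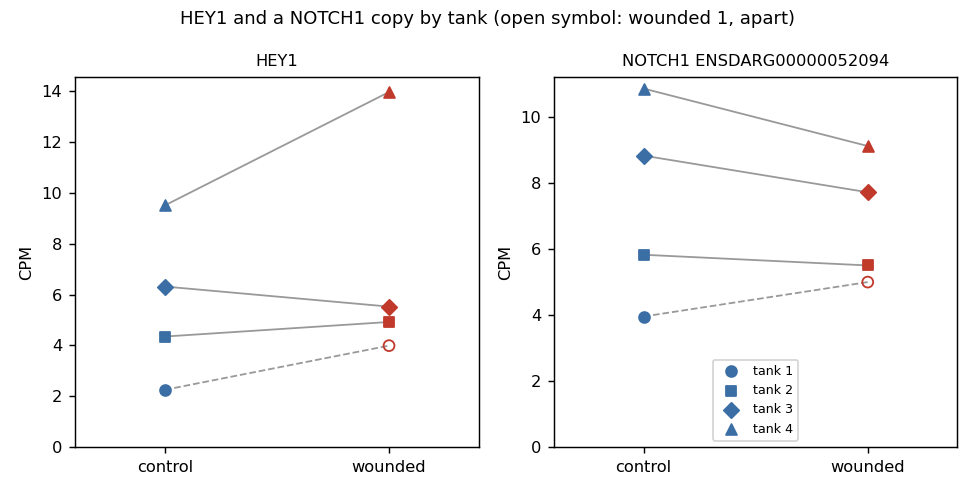
CPM of HEY1 and of the NOTCH1 copy ENSDARG00000052094 in control (blue) and wounded (red) libraries of each tank; the open symbol and dashed line are wounded library 1. In both genes tank 1 is lowest and tank 4 highest in both conditions, from 2.25 to 14.0 CPM for HEY1.

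The rest of the pathway was read from lists of 82 symbols, which matched 78 identifiers, 72 of them tested. A symbol could match more than 1 identifier, so the 78 are not a count of symbols found. There, 1 gene rose and 2 fell in edgeR, 2 rose and 5 fell with the tank as a block, and the same numbers were obtained in DESeq2. Over all genes 1.37%, 5.22% and 9.29% passed in these fits, in that order. With the block MAML3 and DTX3 rose and APH1B, SPEN, CDK8, NRARP and ascl1b fell, and in DESeq2 MAML3 and EGFL7 rose and APH1B, SPEN, CDK8, FURIN and ctbp1 fell. The median log2 fold change was 0.00, with 36 genes above and 36 below 0. MAML3 (ENSDARG00000079552), a Mastermind coactivator that docks on the cut receptor and RBPJ, was at 2.67, 4.10, 3.87 and 2.41 CPM in control libraries 1 to 4 and at 6.83, 7.62 and 9.26 CPM in wounded libraries 2 to 4. The groups did not overlap, and MAML3 rose by 1.28 on the log2 scale (standard error 0.24, edgeR adjusted p = 0.0376), but wounded library 1, at 3.92 CPM, lay within the control range. With all 8 libraries its log2 fold change was 1.09 (edgeR adjusted p = 0.0801), and with the block added it was 1.06 (edgeR adjusted p = 0.0472).

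The genes that fell were SPEN (ENSDARG00000074332), a corepressor that binds RBPJ in the absence of Notch, and APH1B (ENSDARG00000005612), a subunit of the gamma-secretase that cuts the receptor. SPEN was at 46.8, 41.0, 52.7 and 51.1 CPM in control and at 27.99, 31.4 and 30.8 CPM in wounded libraries 2 to 4. Its log2 fold change was -0.67, with a standard error of 0.14 (edgeR adjusted p = 0.0452). Wounded library 1, at 31.4 CPM, was likewise below all controls, and SPEN passed with all 8 libraries (edgeR adjusted p = 0.0429). The second SPEN copy, ENSDARG00000074245, was at 17.0 ± 1.49 CPM in control (SD, n = 4) and 20.1 ± 0.582 in wounded corneas (SD, n = 3). Its wounded libraries lay above all controls, but the log2 fold change of 0.24 did not pass (edgeR adjusted p = 0.379). APH1B was at 36.4, 40.7, 34.9 and 31.9 CPM in control and at 24.3, 20.5 and 23.2 CPM in wounded libraries 2 to 4. Its log2 fold change was -0.67 (standard error 0.14, edgeR adjusted p = 0.0496). With all 8 libraries the adjusted p of APH1B was 0.0784 in edgeR and 0.0444 with the block added. When any 1 of the 7 libraries was left out, the adjusted p of APH1B lay between 0.0537 and 0.188. That of MAML3 lay between 0.0303 and 0.142 and that of SPEN between 0.0307 and 0.161.

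By list, and against 1.37% of all genes past the edgeR test, 1 of 20 genes of receptor and ligand processing fell and none rose, with FURIN (ENSDARG00000062909), a protease that matures the receptor, next, at -0.50 on the log2 scale (edgeR adjusted p = 0.122, DESeq2 adjusted p = 0.0482). Wounded library 1, at 86.2 CPM of FURIN, lay within the control range, and with all 8 libraries the log2 fold change was -0.34 (edgeR adjusted p = 0.361). The second FURIN copy, ENSDARG00000070971, was at 8.25 ± 1.43 CPM in control (SD, n = 4) and 10.5 ± 2.09 in wounded corneas (SD, n = 3). Its groups overlapped, and its log2 fold change lay on the other side of 0, at 0.35 (edgeR adjusted p = 0.387). None of 20 noncanonical ligands and regulators passed, of which 5 had an unadjusted p under 0.05, where 18.5% of all genes did. In that list EGFL7, a secreted protein of endothelium that binds Notch, averaged 1.45 ± 0.591 CPM in control (SD, n = 4) and 3.19 ± 0.293 in wounded corneas (SD, n = 3). Its log2 fold change was 1.14 (edgeR adjusted p = 0.121, DESeq2 adjusted p = 0.0373), and NEDD4 had an edgeR adjusted p of 0.178. NRARP, a feedback inhibitor that Notch itself induces, did not pass for either copy without the block, and with it the copy ENSDARG00000018958 fell (log2 fold change -0.76, with edgeR adjusted p = 0.0416). In the same list DTX3, of the Deltex family, was at 22.2, 13.6, 17.1 and 37.7 CPM in control libraries 1 to 4 and at 28.9, 30.4 and 85.1 CPM in wounded libraries 2 to 4. Its groups overlapped, and it rose by 1.03 on the log2 scale with the block (edgeR adjusted p = 0.00531) but did not pass without it (adjusted p = 0.196), in DESeq2 (adjusted p = 0.232) or with all 8 libraries and the block (edgeR adjusted p = 0.0603). The NRARP copy ENSDARG00000091419 was at 117 ± 15.9 CPM (SD, n = 4) and 127 ± 19.6 (SD, n = 3). Of 25 genes of the nuclear complex and corepressors, 1 rose and 1 fell, and 10 had an unadjusted p under 0.05, where 18.5% of all genes did. Such a p was found for 4 of the 20 genes of receptor and ligand processing.

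Of the proneural factors, which Hairy repressors are known to hold down, 7 of 11 had enough counts to be tested and 1, atoh8, exceeded 10 CPM. None passed in edgeR, and 3 had an unadjusted p under 0.05, where 18.5% of all genes did. The gene ascl1b was at 1.85, 1.59, 1.13 and 0.505 CPM in control libraries 1 to 4 and at 0.363, 0.126 and 0.117 CPM in wounded libraries 2 to 4. All wounded libraries, with 0.258 CPM in wounded library 1, lay below all controls, and the log2 fold change was -2.63 (edgeR adjusted p = 0.0686, and 0.0405 with the tank as a block). For atoh1b it was -1.89 (edgeR adjusted p = 0.119), also without overlap between the groups.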

How the data were processed

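Bases were called by the authors with bcl2fastq 2.20.0.422, STAR 2.6.0c placed the single-end reads on GRCz11, and featureCounts assigned them to the genes of Ensembl release 97. Trimmomatic is named without settings. What the authors deposited is a table of raw, unnormalized counts. How featureCounts treated strand is not given in the sources used here, so reads of overlapping antisense genes cannot be told apart.

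Counts of the 7 libraries were filtered with filterByExpr, normalized by TMM and tested with edgeR 4.0.16 (quasi-likelihood, Benjamini-Hochberg over all genes, adjusted p of 0.05) in R 4.3.3, with no block. Wounded library 1 was set on the same CPM scale through factors of all 8 libraries. DESeq2 1.42.0, other filters and size factors, the tank as a block, all 8 libraries and leaving out each library were alternatives. Age class was tested with condition as a covariate. Only the edgeR fit without the block was tested on simulated counts, which held no differences between tanks.

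Control and wounded fish of one age shared a tank, which pairs libraries by number. Without wounded library 1, tank 1 holds a control library only, and the block fit then compares the groups within tanks 2 to 4. Pairs deviated together from the means of their groups, with correlations of 0.162, 0.245, 0.224 and 0.288. Without the block the p-values measure the spread between pools of fish, and with it the spread left within tanks. In the age test libraries of one tank counted as separate replicates although they shared an age. Its p-values therefore do not measure the spread between tanks.

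Symbols came from a reference table that names 29201 identifiers. The members and lists were chosen with earlier results of these data known. Genes named with values were those past the test in edgeR, with the block or in DESeq2, those whose wounded libraries lay beyond all controls at a mean of 1 CPM or more, the 5 with most CPM in controls, all receptors, tested ligands, RBPJ and hey genes, and, of the other lists, those past the test and the first 2 by p. Further genes were named after their values were seen. Promoter and protein sequences were not used here.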

Additional observations from a re-analysis of the deposited data

Results flagged for a closer look

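Among 50 groups of 4 libraries examined (25 genes in control and in wounded libraries 1 to 4), 4 held a library far from the other three by Dixon's criterion, which chance meets in about 1 in 20 groups. NOTCH3 was at 108 CPM in control library 3, where the other controls lay between 79.8 and 84.0. The gene dlb was at 1.83 CPM in the same library. HES6 (ENSDARG00000019335) was at 2.42 CPM in control library 1. HEY1 was at 14.0 CPM in wounded library 4, the library without which its log2 fold change became -0.10. Without control library 3 the log2 fold change of NOTCH3 was -0.41.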

How the results depend on the processing

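Of the 37 genes 0 rose under every alternative run. The count that fell, 0 in edgeR, was 2 in DESeq2, 2 with the tank as a replicate block, 1 on every gene with a count and 1 with all 8 libraries and the block, and 0 without any single library. Over all genes, 610 rose and 709 fell in DESeq2, 276 and 204 on every gene with a count, 514 and 475 with the block, and 456 and 349 with all 8 libraries and the block. Without single libraries 10 to 264 rose and 7 to 192 fell, the fewest without wounded library 3. Of the other pathway genes, 2 rose and 5 fell in DESeq2 and with the block. With all 8 libraries 0 rose and 1 fell, and with all 8 libraries and the block 1 rose and 4 fell. Without single libraries 0 to 1 rose and 0 to 1 fell. The cause was not tested.

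Some uncalled genes took the other sign. With the block the log2 fold change was -0.02 for LFNG, -0.00 for mfng, -0.00 for her7 and -0.18 for NOTCH1 ENSDARG00000052094. With all 8 libraries it was 0.02 for jag2a, 0.06 for NUMB and -0.10 for that NOTCH1 copy, and with the block added 0.00 for jag1a, 0.06 for NUMB, 0.03 for HES1 and -0.05 for NOTCH1. Without single libraries it ranged from -0.02 to 0.13 for LFNG, -0.17 to 0.40 for her7, -0.10 to 0.93 for HEY1, -0.41 to 0.18 for HEY2, -0.11 to 0.02 for dll4, -0.40 to 0.10 for jag1a, -0.59 to 0.34 for jag2a, -0.19 to 0.06 for NUMB, -0.27 to 0.23 for HES1, -0.19 to 0.27 for NOTCH1 ENSDARG00000052094 and -0.07 to 0.26 for NOTCH1 ENSDARG00000103554. Of 443 values over 33 genes, 373 kept direction and call. For genes under 1 CPM the depth limits what can be detected.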
